A study of Mus musculus with 30 samples.

Results

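The genes described here encode the subunits of the oxidative phosphorylation system and a group of complex I assembly factors, in liver, kidney and brain of mice. They were chosen by symbol. A gene was a member if a probe set annotated to it alone carried a symbol that begins with Nduf followed by a, b, c, s or v, with Uqcr, with Cox4 to Cox8 or with Atp5, or was Sdha, Sdhb, Sdhc or Sdhd. The choice gave 90 of the 18193 genes that had a probe set of their own, measured by 179 of 45037 probe sets. By symbol, 36 fell to complex I, 8 to the complex I assembly factors named Ndufaf, 4 to complex II, 8 to complex III, 17 to complex IV and 17 to complex V, the ATP synthase. Each gene was represented by its strongest probe set, and 39 genes had only 1.

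The 30 arrays came from 10 male mice of genotype Avy/a, taken at weaning on day 22, each of which gave a liver, a kidney and a brain. Avy is an agouti allele (viable yellow) that gives coats from yellow to brown in mice of the same genotype. All 10 mice carried it over a, so no group lacked it. The mice were inbred by sib mating in a colony kept heterozygous for Avy, an allele that arose in C3H/HeJ. There were 5 classes of coat colour, each with a mouse numbered 1 and a mouse numbered 2. The classes run from yellow through slightly mottled, mottled and heavily mottled to pseudoagouti, and the labels do not state what the number stands for. The study searched for transcripts that differ between mice and little between tissues of 1 mouse.

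The respiratory chain sits in the inner mitochondrial membrane. Complexes I and II pass electrons from NADH and succinate to ubiquinone, complex III passes them on to cytochrome c, and complex IV hands them to oxygen. Complexes I, III and IV pump protons as they do so, and complex V lets the protons flow back to make ATP. Most subunits come from nuclear genes that are active in nearly every cell, and a few of complex IV exist as paired isoforms, one general and one found mainly in heart, skeletal muscle, brown fat or testis. Liver, kidney and brain all depend heavily on this system.

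The measurements are array signals, which are linear intensities that the authors scaled so that each array has the same trimmed mean (500 on all 30 arrays, with 2% trimmed at each end). A difference between samples is given as a log2 difference of signal plus 16. A probe set was tested if its highest tissue mean was at least 242, the median over all probe sets, and 87 of the 90 members passed. Ndufb4, Cox4i2 and Cox7b2 did not, and the members nearest the minimum were Cox8b above it and Cox4i2 below it. Levels are compared between samples, never between genes, because each probe set has its own response. The labelled tissues carried their own markers, with 7 of 7 measured markers higher in liver, 7 of 7 in kidney and 7 of 7 in brain than in either other tissue. In bulk tissue, fewer cells of a type and less RNA per cell cannot be told apart.

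As a group the members had lower signals in brain than in kidney. In liver they were also above brain on the deposited scale, but the size of that difference depended on the scaling. The test was limma's, with the mouse as a block and Benjamini-Hochberg adjustment over all tested probe sets, and a call needed an adjusted p under 0.05. By this rule 80 of 87 members were higher in kidney than brain, against 44.3% of all tested genes, and 4 were lower, against 36.5%. In liver, 75 were higher than in brain, against 40.4% of all genes, and 5 were lower, against 44.5%. The median member was 0.80 higher on the log2 scale in kidney than in brain (all genes 0.11) and 0.74 higher in liver than in brain (all genes -0.07). After quantile normalisation over all arrays, the medians were 0.61 for kidney over brain (all genes 0.17) and 0.19 for liver over brain (all genes 0.11). The members called higher in liver than brain fell to 43 of 87 (45.9% of all genes), and those called lower rose to 16 (39.9%). For kidney over brain, 77 were then higher (46.8%) and 4 lower (35.1%).

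Most of these differences were under 2-fold. Where a call also needed a log2 difference of at least 1, 23 members were higher in kidney than brain (23% of all genes) and 2 lower (20.2%), while 17 were higher in liver than brain (22%) and 2 lower (28.1%). On the deposited scale the shares of higher calls were thus near the background, and the shares of lower calls were under it. Under quantile normalisation over all arrays the higher calls were fewer, 14 in kidney over brain (24.6% of all genes) and 7 in liver over brain (25.9%). Between liver and kidney on the deposited scale, 0 members were higher in liver by at least 1 (10.7% of all genes) and 4 were lower (19.4%). Without the size rule, 13 were higher in liver (29.4%) and 28 lower (43.7%), with a median difference of -0.05 for liver minus kidney (all genes -0.14). Under quantile normalisation that median was -0.40 (all genes -0.05), with 5 members higher in liver (33.7% of all genes) and 70 lower (39.4%), so by these medians liver then lay nearer to brain than to kidney. In all, 72 members were lower in brain than in both other tissues (31.3% of all genes), and 11 were so by at least 1 in both (13.9%).

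**Figure D1:**
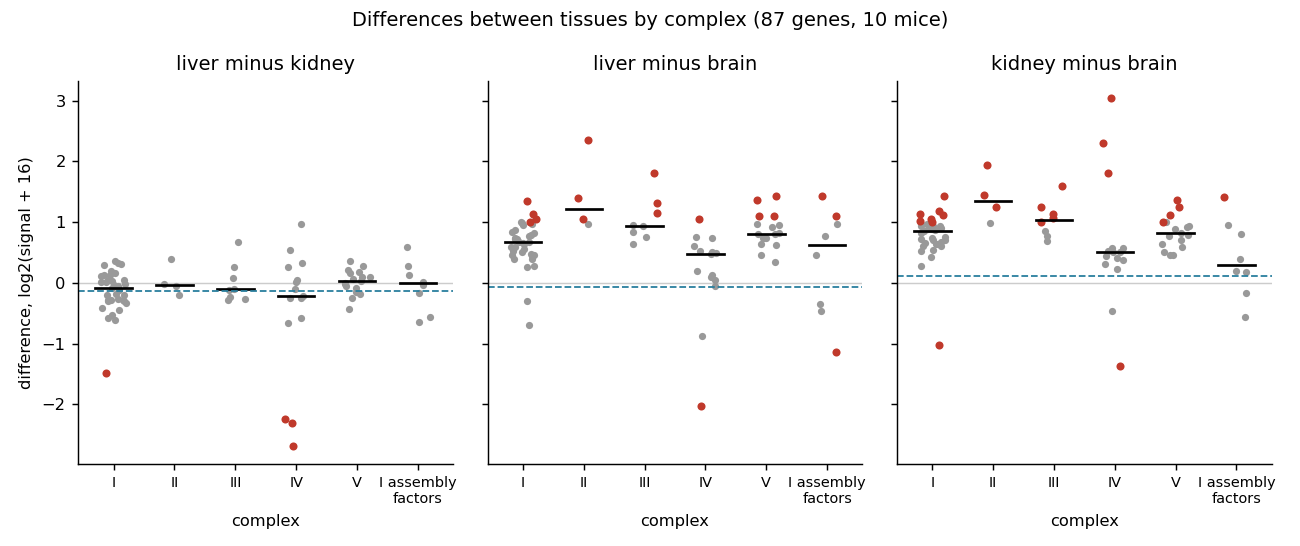
Log2 difference between tissues (vertical axis) for each of the 87 members, grouped by complex, in 3 panels for liver minus kidney, liver minus brain and kidney minus brain. Each point is a gene, red if called with an adjusted p under 0.05 and a difference of at least 1; the black bar is the median of the complex and the dashed line the median of all genes tested. Against brain the complex medians lie above 0 on this scale, highest for complex II (1.22 for liver and 1.35 for kidney), and the complex IV median for liver minus brain turns to -0.19 under quantile normalisation.

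Complex II stood highest of the complexes in both contrasts with brain, with medians of 1.22 over its 4 genes for liver minus brain and 1.35 for kidney minus brain (0.70 and 1.20 under quantile normalisation). It is the succinate dehydrogenase, shared by the respiratory chain and the tricarboxylic acid cycle. Sdhd, one of its membrane anchors, had signals of 5849 to 14893 in liver (median 10375), 4505 to 9774 in kidney (median 7449) and 1321 to 2761 in brain (median 1879). Each liver and each kidney was above all 10 brains, and liver and kidney overlapped. The difference was 2.34 ± 0.13 (SE, n = 10 mice) for liver minus brain, a 5.08-fold change (adjusted p = 6.78e-15, limma with Benjamini-Hochberg adjustment), and 1.95 for kidney minus brain (adjusted p = 4.42e-13). A second Sdhd probe set gave 1.62 and 1.11.

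The other anchor and the catalytic subunits moved the same way by less. Sdhc, the second anchor, had signals of 5745 to 10026 in liver, 6374 to 10251 in kidney, against 2367 to 3935 in brain, and was 1.39 ± 0.09 higher in liver than brain and 1.45 higher in kidney. Sdhb, the iron-sulfur subunit, had 10193 to 13913 in liver, 10370 to 18274 in kidney, against 4819.6 to 6670.3 in brain, with differences of 1.05 ± 0.08 and 1.25. In neither gene did brain overlap with the other tissues. Sdha, the flavoprotein that oxidises succinate, was 0.97 ± 0.10 higher in liver than brain and 0.98 higher in kidney, so it passed the adjusted p (2.18e-09 and 2.19e-09, limma with Benjamini-Hochberg adjustment) but not the size of 1. All 4 genes were higher in liver than brain, and in kidney than brain, in 10 of 10 mice.

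Complex III followed, with medians of 0.94 for liver minus brain and 1.04 for kidney minus brain over 8 genes (0.27 and 0.78 under quantile normalisation). All 8 were higher by the adjusted p in both contrasts (40.4% and 44.3% of all genes), and 3 and 5 of them also passed the size of 1 (22% and 23%). Uqcrq, a small subunit of the complex, had signals of 11269.9 to 16429.5 in liver, 6543 to 13489 in kidney, against 2699.9 to 5259.9 in brain. It was ordered liver over kidney over brain, by 0.67 ± 0.12 and 1.13, with some overlap of liver and kidney. Uqcr10, another small subunit, had signals of 4651 to 8548 in liver, 5952 to 12790.3 in kidney, against 1762 to 4062 in brain, with a kidney minus brain difference of 1.59 ± 0.13. Uqcrfs1, the Rieske iron-sulfur protein, was 1.16 higher in liver than brain and 1.25 higher in kidney. Cyc1 and Cycs, the cytochromes c1 and c, are outside the naming rule and were 1.04 and 0.89 higher in liver than brain.

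Complex V had medians of 0.81 and 0.82 for liver and kidney minus brain (0.06 and 0.59 under quantile normalisation). All 17 genes were higher by the adjusted p in both (40.4% and 44.3% of all genes). By a difference of at least 1, 4 were called in each contrast (22% and 23% of all genes) and 0 in the other direction (28.1% and 20.2%). Atp5e, the epsilon subunit of the soluble F1 part, had signals of 6638 to 9427 in liver, 5887 to 11004 in kidney, against 2643 to 3777 in brain. Both tissues were 1.36 ± 0.09 above brain without overlap. Atp5g1, one of 3 genes for the proton-carrying c subunit, had signals of 6867 to 12526 in liver, 5846 to 12849.9 in kidney, against 1912 to 5768 in brain, with differences of 1.42 ± 0.13 and 1.25. The highest brain was just under the lowest kidney.

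Complex I had medians of 0.67 and 0.85 for liver and kidney minus brain (0.14 and 0.64 under quantile normalisation). Of its 35 tested genes, 33 were higher in liver than brain and 34 in kidney by adjusted p (40.4% and 44.3% of all genes), and 4 and 7 by at least 1 (22% and 23%). Ndufa6, an accessory subunit, had signals of 5226 to 9829.7 in liver, 6239 to 10689 in kidney, against 2275 to 3662 in brain, with no overlap of brain and the others and differences of 1.34 ± 0.09 and 1.43. Ndufs4, an accessory subunit next to the NADH-binding module, was 1.14 higher in liver than brain and 0.94 higher in kidney. Ndufb1, a small membrane-arm subunit, ran the other way. Its signals were 208 to 496 in liver, 202 to 406 in kidney, against 447 to 646 in brain. The brains were above every kidney and overlapped with the upper end of the liver range. The difference was -0.69 ± 0.12 for liver minus brain and -1.03 for kidney minus brain (adjusted p = 7.46e-06 and 1.68e-08, limma with Benjamini-Hochberg adjustment).

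The 8 Ndufaf assembly factors, which help to build complex I without staying in it, were mixed in direction. In liver, 5 were higher than in brain (40.4% of all genes) and 3 lower (44.5%), and in kidney 5 were higher (44.3%) and 1 lower (36.5%). Ndufaf6 had signals of 489.9 to 793 in liver, 483 to 831 in kidney, against 159 to 371 in brain, and was 1.42 ± 0.12 and 1.41 above brain. Ndufaf5 had the reverse order, with 230 to 507 in liver, 378 to 675 in kidney, against 702 to 957 in brain, and was -1.13 ± 0.10 for liver minus brain and -0.57 for kidney minus brain. No brain overlapped with the other tissues in either gene. Ndufaf4 was 1.10 higher in liver than brain and 0.96 higher in kidney.

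Complex IV had the lowest medians of the 5 complexes, 0.47 for liver minus brain and 0.51 for kidney minus brain, and under quantile normalisation they were -0.19 and 0.21. It also had the widest spread, from -2.03 to 1.05 in the first contrast and from -1.38 to 3.04 in the second. Of its 15 tested genes, 8 were higher in liver than brain by adjusted p (40.4% of all genes) and 1 lower (44.5%), and 12 were higher in kidney (44.3%) and 2 lower (36.5%). Cox5a, a general subunit of the complex, had signals of 21027 to 28777 in liver, 13131 to 20914 in kidney, against 10293 to 14545 in brain. It was highest in liver, with no overlap with the other tissues, and 1.05 ± 0.09 above brain. The lower end of both ranges was Cox6a2 and the upper end of the second was Cox7a1, both isoform genes.

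The promoters of 3 isoform pairs are shown because the members of each pair differ both in their pattern over the tissues and in CpG content. They are the RefSeq windows of build GRCm38.p6 from 250 bases before to 50 after the gene's start, read 5′ to 3′ on the gene's strand, with the general isoform first. Capitals mark the core of ETS-family sites, CCGGAAG on either strand, to which GABP (also called NRF2), an activator of many of these genes, binds.
Cox6b1 (chr7:30626065-30626364, minus strand): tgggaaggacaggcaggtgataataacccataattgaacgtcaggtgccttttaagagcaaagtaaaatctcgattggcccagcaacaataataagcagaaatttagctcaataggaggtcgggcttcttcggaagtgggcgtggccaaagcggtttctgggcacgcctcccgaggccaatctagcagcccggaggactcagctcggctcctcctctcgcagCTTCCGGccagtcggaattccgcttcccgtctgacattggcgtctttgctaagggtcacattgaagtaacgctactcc
Cox6b2 (chr7:4753045-4753344, minus strand): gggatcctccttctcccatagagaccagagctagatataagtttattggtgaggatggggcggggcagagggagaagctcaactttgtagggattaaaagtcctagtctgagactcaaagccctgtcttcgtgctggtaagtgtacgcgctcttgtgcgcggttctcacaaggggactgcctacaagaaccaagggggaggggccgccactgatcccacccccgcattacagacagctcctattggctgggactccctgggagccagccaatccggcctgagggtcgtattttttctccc
Cox7a2 (chr9:79759804-79760103, minus strand): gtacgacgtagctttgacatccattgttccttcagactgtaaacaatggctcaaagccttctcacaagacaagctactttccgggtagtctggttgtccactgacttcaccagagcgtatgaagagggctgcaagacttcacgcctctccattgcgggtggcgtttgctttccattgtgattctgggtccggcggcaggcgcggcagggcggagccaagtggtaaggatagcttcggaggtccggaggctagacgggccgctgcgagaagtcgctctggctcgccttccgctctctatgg
Cox7a1 (chr7:30183921-30184220, plus strand): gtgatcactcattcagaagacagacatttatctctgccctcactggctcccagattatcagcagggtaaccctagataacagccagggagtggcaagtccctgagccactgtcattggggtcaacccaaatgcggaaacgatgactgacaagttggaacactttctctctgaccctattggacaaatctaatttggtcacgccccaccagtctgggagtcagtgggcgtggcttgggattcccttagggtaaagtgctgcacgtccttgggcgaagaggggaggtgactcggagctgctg
Cox8a (chr19:7217567-7217866, minus strand): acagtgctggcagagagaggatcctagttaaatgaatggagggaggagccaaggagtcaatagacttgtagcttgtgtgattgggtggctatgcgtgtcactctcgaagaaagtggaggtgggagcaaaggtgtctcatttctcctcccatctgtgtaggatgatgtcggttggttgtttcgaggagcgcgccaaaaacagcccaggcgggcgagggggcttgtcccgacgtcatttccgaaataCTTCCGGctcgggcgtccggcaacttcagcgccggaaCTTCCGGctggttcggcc
Cox8b (chr7:140900397-140900696, minus strand): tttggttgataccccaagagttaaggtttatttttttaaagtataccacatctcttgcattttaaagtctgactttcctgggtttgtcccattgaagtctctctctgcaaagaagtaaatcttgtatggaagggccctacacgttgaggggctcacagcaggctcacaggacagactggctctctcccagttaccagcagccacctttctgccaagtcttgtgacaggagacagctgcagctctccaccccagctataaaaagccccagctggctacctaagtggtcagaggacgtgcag

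The windows of the general isoforms held 17 CpG (Cox6b1), 20 (Cox7a2) and 19 (Cox8a), and those of their partners 10 (Cox6b2), 7 (Cox7a1) and 2 (Cox8b). A window was listed for 74 of the 90 members, with a median of 20 CpG and a range of 2 to 43, against a median of 7 over 27025 promoters of all genes. Cox8b had the lowest count of the 74. The ETS core was in 18 of the 74 windows (24.3%) against 9.1% of all promoters. GCATGCG, the core bound by NRF1, was in 11 (14.9% against 3.6%). AAGATGG, the core bound by YY1, was in 10 (13.5% against 6.5%). At least 1 of the 3 was in 33 (44.6% against 17.7%). All 3 were searched on both strands, and matches of different cores may overlap. A match is a description of these letters and not a measured site.

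Cox6a2, the heart and skeletal muscle isoform of subunit VIa, was a brain-high gene in these mice. Its signals were 600.1 to 932 in brain (median 727), 198 to 374 in kidney (median 260.25) and 89.1 to 300.2 in liver (median 164). The brains did not overlap with any other sample. The difference was -2.03 ± 0.15 for liver minus brain and -1.38 for kidney minus brain (SE, n = 10 mice; adjusted p = 4.17e-12 and 9.39e-09, limma with Benjamini-Hochberg adjustment). Brain was at least 2.90 times liver and, by the fitted difference, 2.60 times kidney. This gene and the others high in a single tissue below passed the minimum through that tissue, and where the mean of a lower tissue was under 242 a bound is given that takes it as 242, since the size of the fitted difference rests on such low values. Cox6a1, the general isoform, was 17747 to 27963 in liver, 13585 to 30540 in kidney, against 11435 to 26836 in brain, with overlap throughout. The ratio of Cox6a1 to Cox6a2 within an array was 2.52 ± 0.24 higher on the log2 scale in liver than brain and 1.60 ± 0.12 higher in kidney than brain, in 10 of 10 mice each (adjusted p = 0.00488 each, exact two-sided sign-flip permutation test over mice). The 8 skeletal muscle markers summed to 637 to 973 in brain, 276 to 439 in kidney and 297 to 440.3 in liver. Only 1 of the 8 passed the minimum, and it was -2.50 for liver minus brain and -2.61 for kidney minus brain, so the sums rest mostly on weak signals and 1 gene. The part of these markers in the result was not tested.

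Cox6b2, known as the testis isoform of subunit VIb, was high in kidney. Its signals were 545 to 1057 in kidney (median 756), 106 to 233 in liver (median 154) and 92.1 to 287 in brain (median 123). The kidneys lay apart from all other samples, while liver and brain overlapped. Kidney was at least 3.01 times both other tissues, with a fitted log2 difference of -2.25 ± 0.15 for liver minus kidney and 2.30 for kidney minus brain (adjusted p = 5.35e-13 and 1.61e-13, limma with Benjamini-Hochberg adjustment). The ratio of Cox6b1, the general isoform, to Cox6b2 shifted by 2.29 ± 0.18 between liver and kidney and by -1.73 ± 0.16 between kidney and brain, in 10 of 10 mice each (adjusted p = 0.00488 each, exact sign-flip permutation test).

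Cox7a1, the heart, muscle and brown fat isoform of subunit VIIa, was also high in kidney. Its signals were 654 to 1981 in kidney (median 1047), 128 to 293 in liver (median 217) and 96.0 to 191 in brain (median 105). Again the kidneys lay apart from all other samples. Kidney was at least 4.31 times both other tissues, with fitted differences of -2.30 ± 0.18 and 3.04 (adjusted p = 1.73e-11 and 3.13e-14, limma with Benjamini-Hochberg adjustment). The ratio of Cox7a2, the general isoform, to Cox7a1 shifted by 2.63 ± 0.26 between liver and kidney and by -2.62 ± 0.22 between kidney and brain, and was 0.01 ± 0.16 between liver and brain (adjusted p = 0.00488, 0.00488 and 0.951, exact sign-flip permutation test).

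**Figure D2:**
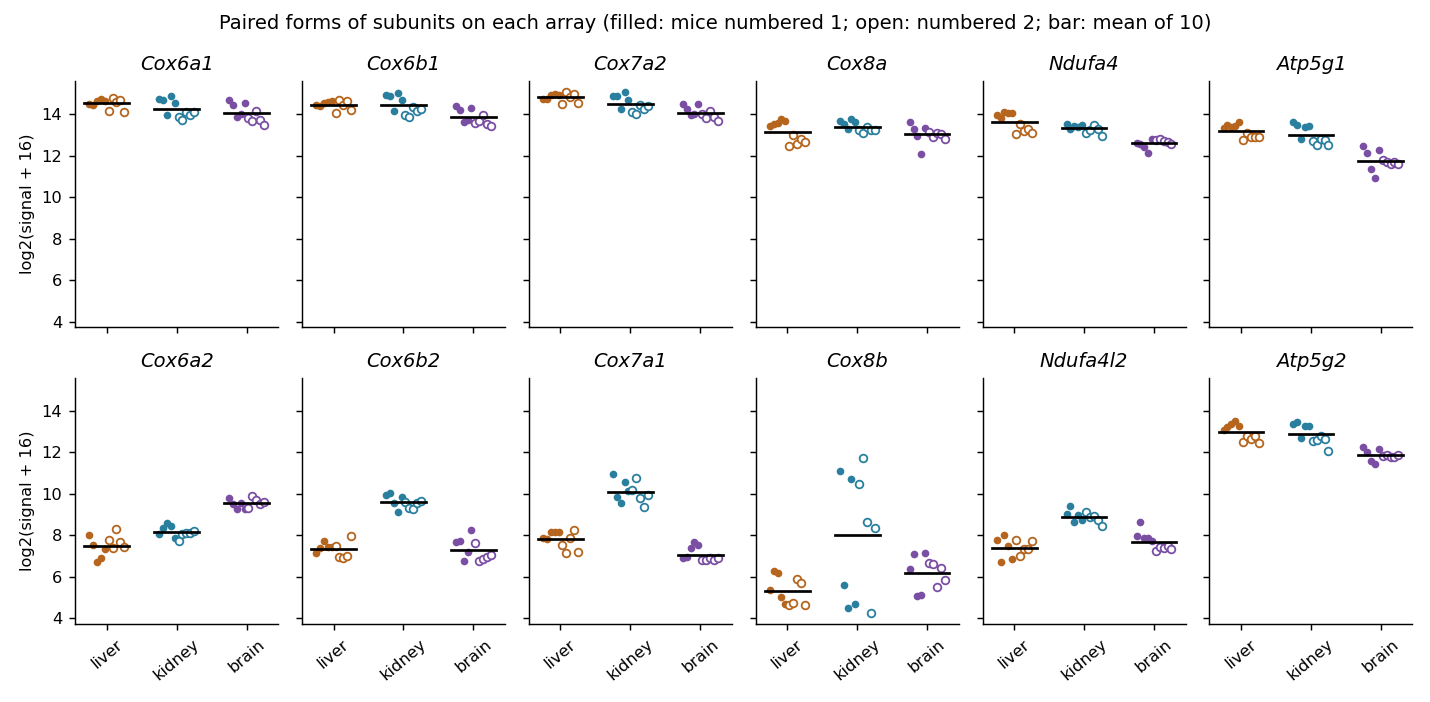
Log2 of signal plus 16 (vertical axis) for isoform pairs, one pair above the other, in liver, kidney and brain, with a point for each of the 30 arrays, filled for mice numbered 1 and open for mice numbered 2, and a bar for the mean. Cox6a2 is high in brain, and Cox6b2, Cox7a1 and Ndufa4l2 are high in kidney with overlap between kidney and another tissue for Ndufa4l2 but not for Cox6b2 or Cox7a1; heights are not comparable between genes.

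Cox8b, the heart, muscle and brown fat isoform of subunit VIII, varied more between kidneys than between tissues. Its kidney signal ran from 3.3 to 3344 (median 349), against 8.7 to 62.7 in liver and 17.8 to 128 in brain. In 6 kidneys the signal was above every liver and every brain, and in the other 4 it was 3.3 to 32.4. Each liver, each brain and these 4 kidneys were under the minimum of 242, and the kidney mean lay at it, so no bound on the fold is given. The fitted difference was -2.69 ± 0.75 for liver minus kidney (adjusted p = 0.00273, limma with Benjamini-Hochberg adjustment) and 1.81 for kidney minus brain (adjusted p = 0.0313). The ratio of Cox8a, the general isoform, to Cox8b shifted by 2.44 ± 1.03 between liver and kidney (adjusted p = 0.0725, exact sign-flip permutation test), in 7 of 10 mice.

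The kidneys with high Cox8b were those with brown fat transcripts. Ucp1, the uncoupling protein that makes brown fat burn fuel as heat, had a signal over 500 in 4 kidneys, those of yellow 1, heavily mottled 1, yellow 2 and slightly mottled 2. In these, Ucp1 was 2131 to 5276 and Cox8b 1398 to 3344. In the other 6 kidneys Ucp1 was 3.0 to 386 and Cox8b 3.3 to 383. The fat genes Cidea and Adipoq followed the same split, at 1435 to 3167 and 1772 to 3083 in the 4 kidneys and 5.5 to 377 and 3.4 to 569.8 in the 6. The 4 brown fat markers summed to 67.1 to 8778 over the kidneys, 192 to 4332 over the livers and 166 to 395 over the brains. Without the 4 mice, chosen after these values were seen, Cox8b was -0.45 for liver minus kidney and -0.17 for kidney minus brain, and neither was called.

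Cox7a1 moved in part with the same split. It was 1160.1 to 1981 in the 4 kidneys with high Ucp1 and 654 to 1116 in the other 6, so the sets did not overlap, but the 6 were still above every liver and brain. Without the 4 mice the differences were -1.87 for liver minus kidney and 2.68 for kidney minus brain. Cox6b2 was 545 to 968 in the 4 and 598 to 1057 in the 6, and Cox6a2 198 to 337 and 219 to 374, so neither followed Ucp1. Myh7, Acta1 and Ckm, genes of striated muscle, were at most 182 in any kidney.

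**Figure D3:**
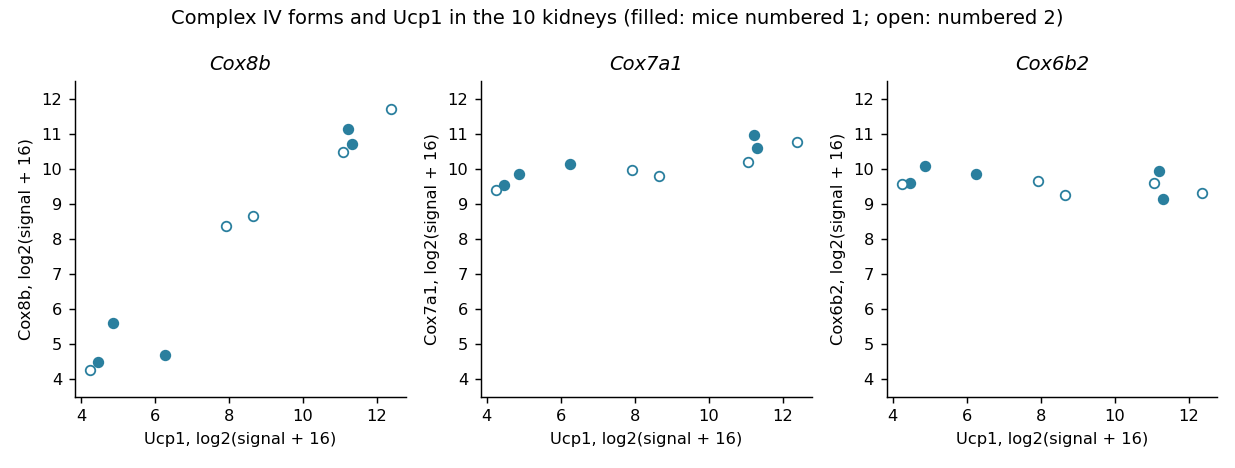
Signals of Cox8b, Cox7a1 and Cox6b2 (vertical axis) against the signal of Ucp1 (horizontal axis), both as log2 of signal plus 16, in the 10 kidneys, 1 point for each mouse, filled for mice numbered 1 and open for those numbered 2. Cox8b signals span 3.3 to 3344 along Ucp1, those of Cox7a1 654 to 1981, and those of Cox6b2 545 to 1057 without following it.

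Ndufa4l2, a relative of Ndufa4 known as a gene induced in low oxygen, was also high in kidney. Its signals were 329 to 662 in kidney (median 458), 88.7 to 244 in liver (median 157) and 134 to 385 in brain (median 183). The kidneys lay above the livers and overlapped with 1 brain, that of slightly mottled 1. Kidney was at least 1.84 times both, and the fitted difference was -1.48 ± 0.18 for liver minus kidney and 1.19 for kidney minus brain (adjusted p = 4.5e-08 and 1.09e-06, limma with Benjamini-Hochberg adjustment). The ratio of Ndufa4, counted with complex I by its symbol but now known to belong to complex IV, to Ndufa4l2 shifted by 1.77 ± 0.22 between liver and kidney. The smooth muscle and pericyte markers summed to 7818 to 19807 in kidney, 3453 to 6431 in liver and 3428 to 6118 in brain. Their part in the result was not tested. Cox8c, another isoform of subunit VIII, had signals of 899 to 1694 in liver, 458 to 830 in kidney, against 502 to 1443 in brain, and liver was 0.96 ± 0.12 above kidney without overlap.

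Cox4i2, the isoform of subunit IV tied to low oxygen and lung, was at 85.4 to 169 in liver, 47.5 to 157 in kidney, against 87.5 to 257 in brain, under the minimum. For the c subunit genes of complex V, the ratio of Atp5g1 to Atp5g3 was 0.60 ± 0.14 higher in liver than brain and 0.79 ± 0.10 higher in kidney than brain, in 10 of 10 mice each. The only Atp5g1 probe set whose identifier has no suffix lay under the minimum, with a mean signal of 74.6, so this ratio was measured by 1 Atp5g1 probe set above the minimum. Of the 30 shifts over 10 pairs, 20 passed an adjusted p of 0.05. No share over other gene pairs was computed, so this count is a description. Among the 20 was Cox4i1 over Cox4i2 for kidney minus brain (0.85, adjusted p = 0.00837, exact sign-flip permutation test), although Cox4i2 was under the minimum.

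Related mitochondrial genes gave a context for the members. Of 12 tested genes of the tricarboxylic acid cycle, 5 were higher in liver than brain by at least 1 (22% of all genes) and 1 lower (28.1%), and 7 were higher in kidney than brain (23%) and 0 lower (20.2%). Suclg2, a subunit of the GTP-forming succinyl-CoA ligase, which makes the substrate of complex II, was 3.33 ± 0.11 and 3.36 above brain. Cs, citrate synthase, was lower in liver than in kidney (-1.38 ± 0.09) and brain (-1.07). Etfa, Etfb and Etfdh, which bring electrons from fat oxidation to ubiquinone, were 3.51, 3.82 and 3.51 higher in liver than brain and 2.69, 2.88 and 2.48 higher in kidney.

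Of 24 tested assembly factors for complexes II to V, 8 were higher in liver than brain by at least 1 (22% of all genes) and 1 lower (28.1%), and 4 were higher in kidney (23%) and 1 lower (20.2%). Sco2, which helps to load copper into complex IV, was 2.43 ± 0.17 higher in liver than kidney and 2.48 higher than brain. Ttc19, a complex III assembly factor, was -1.51 ± 0.11 for liver minus brain and -1.62 for kidney minus brain. Of 16 regulators of mitochondrial genes, 5 were lower in liver than kidney by at least 1 (19.4% of all genes) and 0 higher (10.7%). Ppargc1a, a coactivator of respiratory genes, was -2.37 ± 0.17 and Esrrg, an orphan nuclear receptor that works with it, -4.02 ± 0.21 for liver minus kidney. Gabpa, the DNA-binding subunit of GABP, and Tfam, a transcription factor of mitochondrial DNA, were 1.30 and 1.28 higher in liver than brain. Slc25a4, the muscle and heart isoform of the ADP/ATP carrier, was -2.61 ± 0.19 for liver minus kidney, and Atpif1, the inhibitor of complex V, -2.12 ± 0.09.

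Across mice the members' signals were correlated within a tissue. The median Pearson correlation over 3741 pairs of members, each over 10 mice, was 0.81 in kidney, 0.61 in brain and 0.37 in liver, while over pairs of all tested genes it was 0.01, 0.01 and 0.02. All pairs share the same 10 arrays and their scaling, so these values are a description. Under quantile normalisation within each tissue they were 0.27, 0.31 and 0.15, and with the mean of each mouse number also removed they were 0.12, 0.34 and 0.04. The correlations were thus smaller in all 3 tissues under this scaling, and those of kidney and liver were smaller again with the number removed.

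The complexes differed in how closely their own genes kept together. In kidney the median correlation within a complex was 0.94 for complex V, 0.93 for III, 0.83 for II and 0.81 for I, and 0.31 for complex IV. In brain it was 0.78, 0.67, 0.61, 0.70 and 0.33 in the same order, and in liver 0.65, 0.67, 0.74, 0.30 and 0.20. The Ndufaf assembly factors were at 0.54 in kidney, 0.02 in brain and 0.02 in liver. With members outside their complex, the complex IV genes had medians of 0.65 in kidney, 0.51 in brain and 0.28 in liver. Complex IV includes Cox6a2, Cox6b2, Cox7a1 and Cox8b, whose means were under the minimum in at least 1 tissue. The part of these genes in its low values was not tested. Under quantile normalisation within tissues the order changed. In kidney complex III was then at 0.63, the assembly factors at 0.58, complex II at 0.42, I at 0.33, V at 0.23 and IV at -0.02. In brain complex I was highest at 0.51, V was at 0.33 and IV at 0.02, and in liver complexes II and III were highest at 0.45, with V at 0.25 and IV at 0.08. For the same gene in 2 tissues of the same mice, the median was 0.59 between kidney and brain (all genes 0.25), 0.38 between liver and kidney (0.21) and 0.22 between liver and brain (0.11). With the number removed, these were 0.47, -0.04 and 0.03 (all genes 0.21, 0.14 and 0.06), and with quantile normalisation within tissues as well 0.44, 0.21 and 0.17 (all genes 0.20, 0.17 and 0.06).

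**Figure D4:**
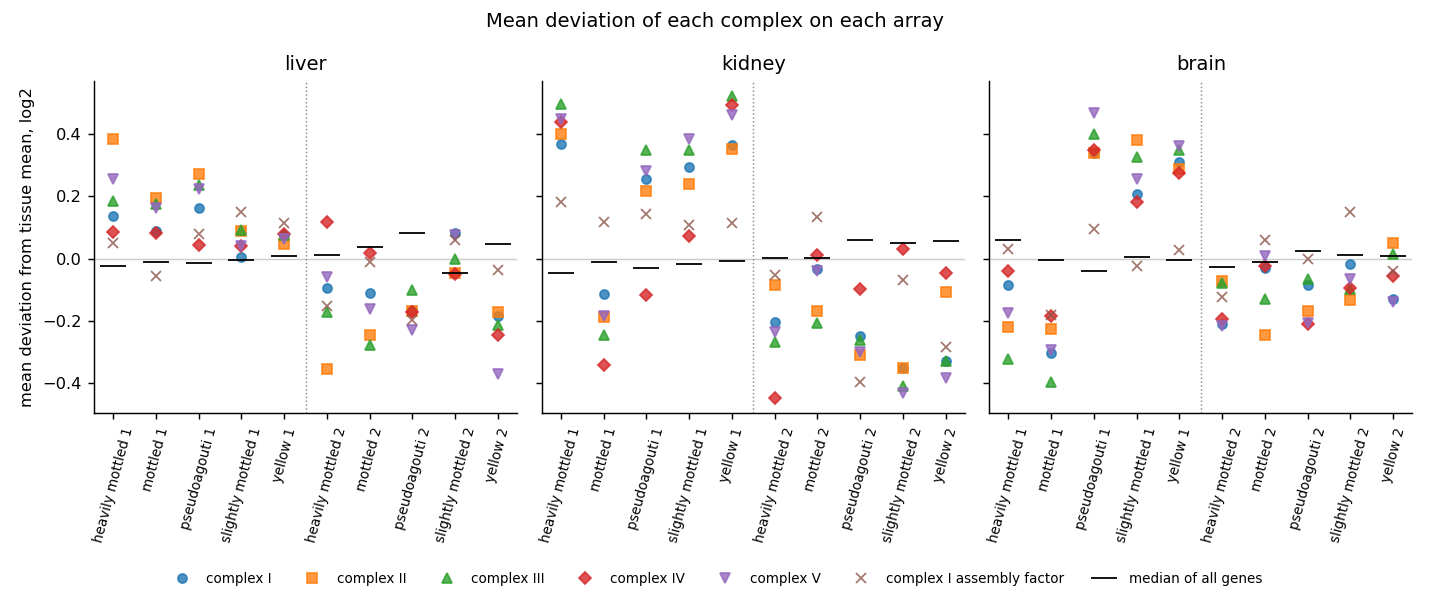
Mean deviation of each complex from its tissue mean (vertical axis, log2) on each of the 30 arrays, by tissue, with mice numbered 1 left and those numbered 2 right of the dotted line and the median of all genes as a black bar. In the kidneys of pseudoagouti 1, slightly mottled 2 and mottled 2, complex IV (-0.12, 0.03 and 0.01) lies on the other side of 0 from complexes I, II, III and V. The complex IV mean includes Cox8b, whose signals in these kidneys were 9.8, 3344 and 383. The part of Cox8b in this was not tested. In kidney complexes I, II, III and V are above 0 in 4 of the 5 mice numbered 1, and mottled 1 lies with the mice numbered 2.

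The members also differed between mice numbered 1 and 2. In kidney, 39 of 87 members were lower in the 5 mice numbered 2 than in the 5 numbered 1 (limma, Benjamini-Hochberg adjusted p under 0.05), against 3.03% of all genes, and 0 were higher (4.04%). In liver, 25 were lower (3.71%) and 0 higher (4.86%). In brain, 0 were lower (0.505%) and 1 higher (1.09%), and by unadjusted p under 0.05 in either direction 20 of 87 differed (20.3%). Without regard to a test, mice numbered 2 had the lower mean for 83 members in kidney (41.6% of all genes), 70 in liver (44.6%) and 75 in brain (51.4%). The median of number 2 minus 1 was -0.50 in kidney (all genes 0.07), -0.20 in liver (0.04) and -0.18 in brain (-0.01). Under quantile normalisation within tissues it was -0.18, -0.14 and -0.10. The labels do not say whether the number marks a litter, a day or a batch.

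Markers of each tissue were compared between the numbers in the same way. In kidney the 7 kidney markers had a median of -0.53 for number 2 minus 1, with 2 called lower, and their summed signal had medians of 145738 in mice numbered 1 and 95306 in mice numbered 2. In brain the 7 brain markers had a median of -0.25 with 0 called (limma with Benjamini-Hochberg adjustment), and in liver the 7 liver markers had -0.08 with 0 called. The part of these markers in the result was not tested.

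Other array measures moved with the number in some tissues but not in all. The highest signal on an array, a sign of how far the strong probe sets reach, was 22991 to 45410 in kidneys numbered 1 and 19007 to 25922 in those numbered 2. In brain it was 20060 to 37230 and 16761 to 24161. In liver the range of mice numbered 1, 39228 to 47341, lay inside that of mice numbered 2, 34084 to 50092. The ratio of the 3′ to the 5′ probe set of Gapdh, a control for RNA quality, was 0.76 to 0.81 and 0.79 to 1.01 in kidney. In liver it was 0.71 to 0.75 and 0.75 to 0.89. In brain the range of mice numbered 2, 0.78 to 0.81, lay inside that of mice numbered 1, 0.72 to 0.82. With the highest signal as a covariate, the kidney median was -0.12 and 0 members were called (0% of all genes called lower). The liver median was then -0.19, with 32 members called lower (5.19%). The brain median turned to 0.12. With the Gapdh ratio as a covariate, 0 members were called in kidney and 0 in liver (0% and 0.0414% of all genes called lower), with medians of -0.42 and -0.24. The part of these measures in the result was not tested beyond these fits.

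The kidney count was not stable, and without the filter it was 2. Leaving out 1 mouse gave 0 calls for 7 of the 10 mice, and 14 without heavily mottled 2, 47 without mottled 2 and 66 without mottled 1. Shares of all genes are not given for these fits, so the counts do not describe the members alone. The kidney and the brain of mottled 1 and the brain of heavily mottled 1 lay with the arrays numbered 2, with mean deviations of the members of -0.16, -0.27 and -0.11. In liver the count stayed at 15 to 26 in every such fit.

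In liver, Cox8a had the largest difference. In mice numbered 1, taken by class from yellow to pseudoagouti, its signals were 11149, 11963, 12296, 13894 and 13277, and in the same classes numbered 2 they were 5665, 8294, 6082, 7266 and 6510.3. The 2 sets did not overlap. The difference was -0.90 ± 0.12 (SE, 5 against 5 mice; adjusted p = 0.00221, limma with Benjamini-Hochberg adjustment), -0.82 under quantile normalisation within tissues and -1.06 with the Gapdh ratio as a covariate (adjusted p = 0.0514). A second Cox8a probe set gave -1.09. In kidney the difference was -0.34 and in brain -0.05. Atp5k was -0.85 in liver. Ndufa4 had the next smallest adjusted p (0.00269, limma with Benjamini-Hochberg adjustment), with -0.77 ± 0.11 in liver, from 14270 to 17434 in mice numbered 1 to 8560 to 11691 in mice numbered 2. Sdhd had -0.79 ± 0.13 in liver, but its second probe set had 0.45, so its direction rests on the probe set.

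In kidney, Ndufs5, a subunit of the membrane arm of complex I, had signals of 8415, 7844, 4609, 9223 and 8193 in the same order of classes numbered 1, and 4109, 4079, 4377, 4129 and 3979 in those numbered 2. Every mouse numbered 2 was below every mouse numbered 1, and mottled 1 was near them. The difference was -0.85 ± 0.16 (adjusted p = 0.0292, limma with Benjamini-Hochberg adjustment), -0.68 under quantile normalisation within tissues and -0.32 with the highest signal as a covariate (adjusted p = 0.950). In liver Ndufs5 was 6113 to 7111 in mice numbered 1 and 4022 to 5199.8 in those numbered 2, again without overlap (-0.51 ± 0.10, adjusted p = 0.00795). In brain it was 3382 to 7321 and 3556 to 3948, and the sets overlapped through mottled 1. Ndufs1, the largest iron-sulfur subunit of complex I, was -0.75 ± 0.14 in kidney (adjusted p = 0.0292) and 0.06 in liver. Ndufc1, a small membrane subunit, was -0.98 ± 0.19 in kidney, and a second probe set gave -0.18.

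Groups without overlap were counted as well. In liver, all 5 mice numbered 2 were below all 5 numbered 1 for 25 members (3.85% of all genes), and in kidney for 7 (2.55%), which were Ndufab1, Ndufb5, Ndufs1, Ndufs5, Ndufaf3, Uqcr10 and Atp5g1. In brain this held for Ndufa4l2 alone (2.18%). The reverse, all 5 above, held for 0 members in liver (5.41%), 0 in kidney (3.74%) and 1 in brain (2.92%). That 1 was Ndufs8, an iron-sulfur subunit of complex I, at 4235 to 5709 in mice numbered 1 and 6592 to 8874 in those numbered 2, a difference of 0.56 ± 0.12 (adjusted p = 0.0402, limma with Benjamini-Hochberg adjustment). Its 5 other probe sets gave 0.31, -0.14, -0.14, -0.25 and -0.24, so this call rests on 1 probe set. The difference by number varied between tissues for 5 members (4.72% of all genes), 4 of complex I and 1 of complex V.

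**Figure D5:**
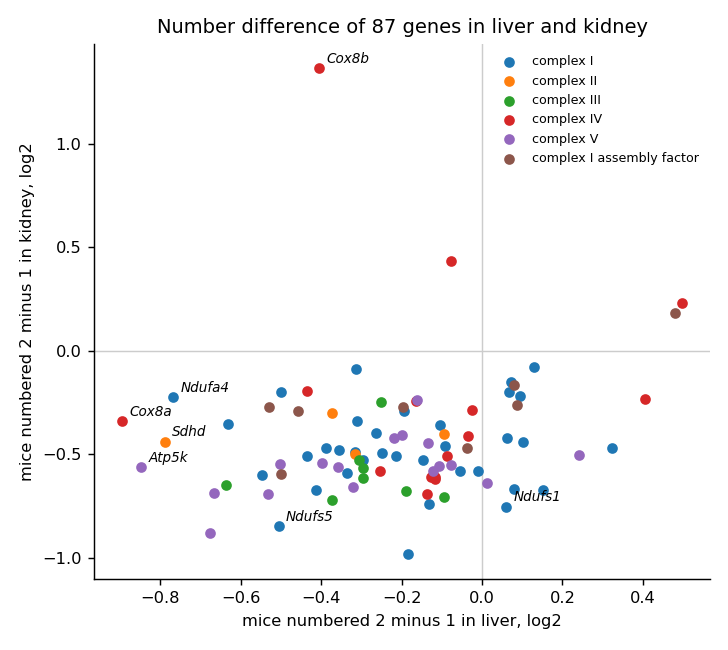
Log2 difference of mice numbered 2 minus mice numbered 1 in kidney (vertical axis) against the same in liver (horizontal axis), 1 point for each of the 87 members, coloured by complex. On the deposited scale, 83 members lie below 0 in kidney and 70 in liver, with medians of -0.50 and -0.20. With the highest signal of the array as a covariate the medians are -0.12 and -0.19, but that covariate is not independent of the members, some of which have strong signals.

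A difference between mice in the average over the 3 tissues was called for 15 of 87 members (moderated F-test of limma, Benjamini-Hochberg adjusted p under 0.05), against 6.59% of all genes. The test does not ask whether each tissue shares the difference. In fits of a pair of tissues, 13 members were called in kidney and brain, 3 in liver and kidney and 0 in liver and brain (shares of all genes not given). The 15 were 6 of complex I, 5 of complex V, 3 of complex III and 1 assembly factor. Atp5k, the e subunit of complex V, had the smallest adjusted p (0.00158), with its highest and lowest mouse 1.23 apart on the log2 scale. Its signals were 13226 to 18809.5 in livers numbered 1 and 5909 to 11581 in those numbered 2, 11187 to 19402 and 9154 to 13017 in kidney, and 9389.9 to 13333 and 5339 to 10148 in brain. The numbers overlapped in kidney and brain but not in liver. Ndufs5 (adjusted p = 0.00405) and Ndufb5, a membrane-arm subunit (0.00578), came next. In all 15 the highest mouse was numbered 1 and the lowest was numbered 2. With the number removed, 0 of 87 were called (0.455% of all genes).

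The design of the study turns on the ratio of the spread between mice to the spread between tissues, computed here from 2 averages: the SD across the 10 mice, averaged over tissues, over the SD across the 3 tissues, averaged over mice. It was over the study's limit of 1.5 for 1 member, Ndufs5 at 1.86, against 0.505% of all genes, and was 1.31 for Ndufs5 with the number removed. It was over 1 for 8 members (8.12% of all genes), among them Atp5k at 1.42, Ndufaf3 at 1.29, Cox8a at 1.19 and Cox6a1 at 1.12. The median was 0.58 over the members and 0.40 over all genes.

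No member passed the test for a change with coat class. The slope per step from yellow to pseudoagouti was called for 0 of 87 members in liver (0% of all genes), kidney (0.00827%), brain (0%) and the mean of the tissues (0.00827%) by limma with Benjamini-Hochberg adjustment. By unadjusted p under 0.05 it was called for 1, 1, 0 and 1 (1.94%, 2.05%, 1.45% and 1.77% of all genes). Cox8b had the smallest p over the mean of tissues, with a slope of -0.39 ± 0.13 per step (unadjusted p = 0.01, adjusted p = 0.9999, limma with Benjamini-Hochberg adjustment). Its kidney signals, by class from yellow to pseudoagouti, were 2212 and 1398, 32.4 and 3344, 6.7 and 383, 1668 and 3.3, and 9.8 and 314, so mice of 1 class differed as much as classes did.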

How the data were processed

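Total RNA of 30 samples was hybridised to Affymetrix GeneChip mouse genome arrays. The deposited values are linear signal intensities that the authors made with MAS5, per the submitters' processing notes, whose version is not given in the sources used here. No other column of sample values was left out (0). Of 45101 probe sets, 64 controls were left out, 34945 had 1 gene symbol in the platform annotation, 932 several and 9160 none. From the values, log2(signal + 16) was computed, probe sets with a highest tissue mean of at least 242 were kept (22519), and limma 3.58.1 (R 4.3.3) was fitted with lmFit and eBayes with a trend, with Benjamini-Hochberg adjustment over all of them. All shares of all genes are over 12089 genes, each by its strongest probe set. Tissues were compared with the mouse as a block, since the labels give the 3 tissues of a mouse the same coat class and number. Mice numbered 1 and 2 were compared within each tissue, 5 against 5. Isoform ratios were tested with an exact sign-flip permutation test over 10 mice, whose smallest p is 0.00195, adjusted over 30 shifts. The precision is limited by the number of arrays.

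The members and all gene lists were chosen with earlier results of these data known. Genes were named by rule: isoform pairs, complex II, the largest called differences by complex and direction, the smallest p for mouse, number and coat, the highest ratio of spreads, and the extremes of each list. Names outside the rule (Ndufa5, Ndufab1 and Atp5pb, and the member promoters shown) were added after their values were seen. Alternatives were other offsets, filters, scalings, probe set choices, covariates and blocks, each mouse left out, and 3 chosen after seeing the data: without the 4 mice with kidney Ucp1 over 500, without mottled 1 and heavily mottled 1, and quantile scaling with the number removed. On simulated data of 22519 probe sets, the kidney minus brain fit recovered 99% of 100 differences of 1.5 log2 and 48% of 100 of 0.5, the number fit in kidney 52% of 100 of 1 and 6% of 100 of 0.5, and the mouse test 60% of 100 with an SD of 0.5. Promoter windows are RefSeq's, build GRCm38.p6, matched by gene ID.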

Additional observations from a re-analysis of the deposited data

Results flagged for a closer look

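In 6 of 144 sets of 10 arrays checked, 1 array stood apart, with a gap to its neighbour, as a share of the whole range, above Dixon's 95% limit, and chance gives such a gap in about 1 of 20 sets. Atp5md, a small subunit of complex V, was lowest in the liver of yellow 2 (8958, gap 0.488 of the range). Cox8a was lowest in the brain of heavily mottled 1 (4330.3, 0.485), and Ndufa4l2 was highest in the brain of slightly mottled 1 (385, 0.486). Ndufaf2, a complex I assembly factor, was lowest in the liver of pseudoagouti 2 (427, 0.504) and in the brain of yellow 1 (285, 0.522), and Ndufc1 was lowest in the liver of pseudoagouti 2 (3769, 0.547).

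The difference between mice numbered 2 and 1 varied by tissue for 5 of 87 members (4.72% of all genes, F-test of limma with Benjamini-Hochberg adjustment). Ndufa4 had its lowest value in liver (-0.77 in liver, -0.22 in kidney and 0.19 in brain, adjusted p = 0.00307). Ndufs1 (0.06, -0.75 and -0.35, adjusted p = 0.00494), Ndufab1 (0.15, -0.67 and -0.16, adjusted p = 0.0104), Ndufa5 (0.32, -0.47 and -0.08, adjusted p = 0.0131) and Atp5pb (0.24, -0.50 and -0.15, adjusted p = 0.0233) were lowest in kidney, by limma with Benjamini-Hochberg adjustment. Ndufab1 is the acyl carrier protein of the mitochondrion, Ndufa5 an accessory subunit of complex I and Atp5pb the b subunit of complex V.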

How the results depend on the processing

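Coat slopes stayed at 0 calls in every alternative run. The isoform shifts stayed at 18 to 20 calls of 30, also with a mouse left out, except with probe sets without a suffix. That run gave 15 calls of fewer than 30 shifts, since Cox4i1, Cox6a1 and Cox7a2l have no such probe set and their pairs dropped out. The 15 include Atp5g1 ratios that changed sign, given below. Leaving out each mouse gave 18 to 25 members higher in kidney than brain by at least 1 and 1 to 2 lower, 15 to 21 higher in liver than brain and 2 to 2 lower, 0 to 1 higher in liver than kidney and 4 to 4 lower. It gave 0 to 66 number calls in kidney, 15 to 26 in liver, 0 to 11 in brain, and 3 to 9 that varied by tissue. Shares of all genes are not given for the fits with a mouse left out. Mouse effects ranged from 4 (without pseudoagouti 1) to 32 (without heavily mottled 1), ratios of spreads over 1.5 stayed at 1 to 1, and median correlations were 0.78 to 0.84 in kidney, 0.30 to 0.45 in liver and 0.54 to 0.66 in brain.

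Quantile normalisation over all arrays gave 14 members higher in kidney than brain by at least 1 (24.6% of all genes) and 1 lower (19.7%). It gave 7 higher in liver than brain (25.9%) and 1 lower (25.3%), and 1 higher in liver than kidney (11.4%). It also gave 8 kidney number calls, all lower (1.66%), 2 ratios over 1.5, and correlations of 0.27 in kidney and 0.14 in liver. Within each tissue it gave 8 kidney calls, 8 that varied by tissue, and correlations of 0.27 and 0.15. With no minimum difference the tissue counts were 80, 4, 75, 5, 13 and 28 (kidney over brain, under brain, liver over brain, under brain, liver over kidney, under kidney). Without the filter there were 16 number calls in liver, 2 in kidney, 0 in brain and 8 mouse effects (shares of all genes not given). Probe sets without a suffix gave 1 lower in liver than brain, 0 number calls in brain and 3 that varied by tissue. Members with no such probe set dropped out of that run, among them Ndufaf5, 1 of the 2 lower in liver than brain in the main fit. An offset of 64 gave 1 lower in kidney than brain, as did leaving out the 4 mice with kidney Ucp1.

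With the highest signal as a covariate there were 0 number calls in kidney and brain (0% of all genes called lower in each) and 1 mouse effect (1% of all genes). With the Gapdh ratio there were 0 number calls in liver, kidney and brain (0.0414%, 0% and 0.174% of all genes called lower). With coat class as the replicate block, pairing mice 1 and 2 of a class, there were 19 number calls in kidney and 0 in brain. With the number as the replicate block, there were 0 mouse effects and 0 ratios over 1.5. Mouse effects were 13 in kidney and brain alone, 3 in liver and kidney alone and 0 in liver and brain alone. Without mottled 1 and heavily mottled 1, chosen after seeing the data, there were 60 number calls in kidney, 8 in liver and 54 in brain, 34 mouse effects and 2 ratios over 1.5. Shares of all genes are not given for this fit or for the fits by coat class and tissue pair, so these counts do not describe the members alone. The causes were not tested.

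Some values changed sign. Under quantile normalisation over all arrays, the liver minus brain median of complex IV was -0.19, Atp5k -0.34, Cox6a1 -0.27, Cox6b1 -0.155, Cox7a2 -0.037, Ndufb5 -0.11, Ndufs5 -0.12 and Cox6b1 over Cox6b2 -0.545, and for liver minus kidney Atp5g3 was -0.16, Cox7a2 -0.19 and Ndufa4 -0.13. With probe sets without a suffix, Cox7a2 was -0.0045 and Ndufc1 0.0097 for liver minus kidney, Ndufs8 -0.14 for number in brain, Atp5g1 over Atp5g2 -3.01 and -2.02, and Atp5g1 over Atp5g3 -2.72 and -1.47 (liver and kidney minus brain). With the highest signal as a covariate the median number difference in brain was 0.12, and without the 4 mice Cox8b was -0.17 for kidney minus brain. The cause was not tested. The suffix-free Atp5g1 probe set lay under the minimum. The list gives named genes, ratios and group medians only. Values of all named genes and ratios kept direction and side of the threshold under an alternative in 6712 cases, lost the call in 461, gained one in 181 and reversed in 18. Over all tested members the numbers were 12238, 938, 325 and 46, with 31 of the 46 under quantile normalisation over all arrays and 11 with probe sets without a suffix. Precision is limited by the number of mice, 10.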

Other observations

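ND5, the 1 mitochondrially encoded subunit measured, of complex I, was 0.51 ± 0.16 higher in liver than brain and lower in kidneys numbered 2 than in those numbered 1 by a log2 difference of -0.71 (adjusted p = 0.0477, limma with Benjamini-Hochberg adjustment). Slc25a14, a carrier related to the uncoupling proteins and known from brain, was -5.09 ± 0.17 for liver minus brain and -3.00 for kidney minus brain.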
